A study of Mus musculus with 2931 samples.

Results

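The genes described here are the amino acid and amine transporters of the solute carrier families SLC1, SLC3, SLC6, SLC7, SLC36, SLC38 and SLC43, followed through the endothelium of the mouse lung, whose cells (EC) form the inner wall of vessels. They were chosen by symbol alone: 54 of the 18072 genes of the table matched these families, and leaving out the venous marker Slc6a2 gave 53 members. Of these, 51 are transporter symbols and 2, Slc7a6os and Slc36a3os, name genes on the opposite strand that matched by spelling only. RNA was read in 2931 single cells of the distal lung, each deposited as its own sample, from 10 mice in 5 groups. Of these groups, 4 were kept in normal air and differ in age (E18.5, before birth, then P1, P7 and P21, days after birth), and the fifth was taken at P7 under hyperoxia. Each group held 1 female and 1 male mouse. The strain, the oxygen level and its duration, and whether each mouse name is 1 animal or pooled animals are not given in the sources used here, so n counts mouse names and the spread covers only these names. The 10 subtype labels of the deposited annotation were used, with Early and Late Car4- capillaries joined as Car4- capillaries, and the mouse was the replicate.

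Cells take up and exchange amino acids through carriers that differ in substrate and in what drives them. Heteromeric transporters pair a heavy chain, which brings the complex to the plasma membrane, with a light chain that carries out the transport; other carriers are driven by sodium or protons, and some work from the lysosome, where amino acids are sensed. In endothelium these genes are best known for supplying arginine to nitric oxide synthesis and glutamine to growth, and the lung capillary bed is also known for clearing amines such as serotonin from blood.

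A cell had 42095 to 2967985 reads, with a median of 621406. By mouse, the median ran from 188610 reads (male, P7) to 928377 reads (female, P7). The CD31-gate cells (sorted for an endothelial surface protein, 2694 of the 2931) of the female E18.5, P1 and P21 mice shared 1 sequencing run, and those of the male E18.5, P7, P21 and hyperoxia mice another, so among CD31-gate cells P7 and P1 have no pair within a run. Marker sums separated some labels and not others. The 5 genes marking Car4+ capillaries summed to 7333 to 14782 CPM (reads per 1000000 reads) in Car4+ capillaries and 363 to 1053 CPM in Car4- capillaries. The 5 lymphatic genes summed to 5895 to 7739 CPM in lymphatic EC and up to 4969 CPM in Arterial EC I, the highest other class. The 5 genes marking Car4- capillaries did not separate that label. They summed to 5631 to 10752 CPM in Car4- capillaries, 4617 to 9494 CPM in Arterial EC I and 5297 to 10078 CPM in venous EC. All levels below are reads summed over the cells of a class in 1 mouse, as CPM of that sum; a mouse counts only where it had at least 8 cells of the class. The female E18.5 sum of Car4- capillaries holds 13 cells.

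The 53 members held 0.186% of all reads. The share was lowest in Car4+ capillaries, at 0.0744% to 0.128% over 8 mice, and did not overlap that of Arterial EC I, at 0.186% to 0.288% over 7 mice. Expression was concentrated in few genes. Slc43a3 alone held 42.9% of the members' reads, and Slc43a3, Slc6a6, Slc3a2 and Slc38a2 together held 78.0%. At the other end, 25 of the 53 members had under 1000 reads in all 2931 cells. A mean of at least 10 CPM in any of 7 classes was reached by 23 members, and in every one of the 7 by 10; Arterial EC II was left out of this count because 1 mouse alone had enough cells.

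**Figure D1:**
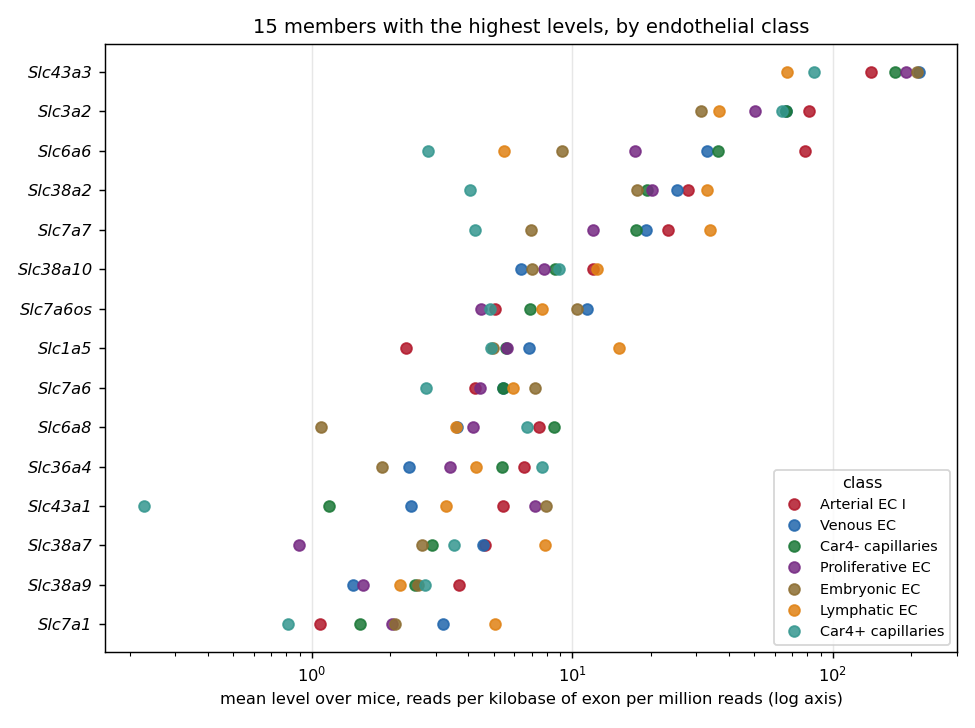
Mean level over mice of the 15 highest members in 7 endothelial classes, in CPM per kilobase of exon on a log axis; each point is 1 class. Slc43a3 lies highest throughout, while Slc6a6 spreads from 2.80 in Car4+ capillaries to 78.5 in Arterial EC I.

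Compared between genes per kilobase of exon, the highest member was Slc43a3, a member of the SLC43 facilitators known as a carrier of purine nucleobases and not of amino acids. Its mean over the 7 classes was 154.9 CPM per kilobase, with class means from 67.0 in lymphatic EC to 214 in venous EC. Slc3a2 followed with 56.6, Slc6a6 with 26.1, Slc38a2 with 21.04 and Slc7a7 with 16.7. Below them came Slc38a10 (9.01), Slc7a6os (7.25), Slc1a5 (6.46), Slc7a6 (5.05), Slc6a8 (5.02), Slc36a4 (4.50), Slc43a1 (3.95), Slc38a7 (3.86), Slc38a9 (2.38) and Slc7a1 (2.26). The plot of levels by class shows that the order of the lower genes changes from class to class, and their class means overlap widely.

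Among the heteromeric transporters, the heavy chain Slc3a2 (partner of most light chains) was present in every class. Its class means ran from 111 CPM in nonproliferative embryonic EC to 286 CPM in Arterial EC I, with 79.5 and 142 CPM in the 2 embryonic mice and 74.0 to 403 CPM over the 7 mice of Arterial EC I, so that these classes overlapped. The other heavy chain, Slc3a1, stayed at or below 0.47 CPM. Of 7 light chains, Slc7a7 and Slc7a6, which exchange cationic for neutral amino acids, passed 10 CPM. Slc7a7 had class means from 13.99 CPM in Car4+ capillaries to 112 CPM in lymphatic EC, and Slc7a6 from 12.6 to 32.8 CPM. Slc7a5, the light chain for large neutral amino acids, did not exceed 5.66 CPM in any class mean, and Slc7a11, the cystine and glutamate exchanger, did not exceed 3.29 CPM. The exons of Slc7a7 overlap those of Oxa1l on the other strand and the strand setting of the counting is not given in the sources used here, so reads of the pair cannot be told apart.

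Of the 5 cationic carriers, Slc7a1, the main carrier of arginine in many cells, was the one past 10 CPM, with class means from 9.39 CPM in Car4+ capillaries to 58.2 CPM in lymphatic EC. Of the 6 SLC1 members, Slc1a5, an exchanger of neutral amino acids including glutamine, reached 63.0 CPM in lymphatic EC and 9.57 CPM in Arterial EC I. Slc1a4, which carries serine and alanine, reached 18.9 CPM in lymphatic EC and at most 3.00 CPM in the other 6 classes. Slc1a1, a glutamate and cysteine carrier, passed 10 CPM in Arterial EC I alone (11.1 ± 19.6 CPM, SD, n = 7). The glutamate carriers Slc1a2, Slc1a3 and Slc1a6 stayed under 1 CPM in each of these class means.

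The SLC38 family gave the most members past 10 CPM in at least 1 class, 8 of 10. Slc38a2, a sodium-driven carrier of small neutral amino acids that cells raise when amino acids run short, had class means from 35.8 CPM in Car4+ capillaries to 291 CPM in lymphatic EC. Its relative Slc38a1 ranged from 7.29 to 55.5 CPM. Slc38a9, the arginine sensor of the lysosome, ranged from 24.1 CPM in venous EC to 61.5 CPM in Arterial EC I, and Slc38a7, a lysosomal glutamine carrier, from 3.69 CPM in proliferative EC to 32.6 CPM in lymphatic EC. Slc38a10 was even, at 40.9 to 79.8 CPM. Slc38a4 was at 19.6 CPM in lymphatic EC and at most 1.62 CPM in the other 6 classes. Slc38a3 was highest in embryonic EC (28.9 CPM). Slc38a6 had its highest class mean in Car4+ capillaries (21.3 ± 14.7 CPM, SD, n = 8), close to the 19.9 ± 10.5 CPM of postnatal Car4- capillaries.

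Of the SLC36 carriers, Slc36a4 ranged from 12.2 CPM in embryonic EC to 50.3 CPM in Car4+ capillaries and Slc36a1 from 2.69 to 10.96 CPM. The SLC43 amino acid facilitators had unlike patterns. Slc43a1 ranged from 1.30 CPM in Car4+ capillaries to 45.3 CPM in embryonic EC, and Slc43a2 was highest in Car4+ capillaries, at 23.4 ± 26.3 CPM (SD, n = 8), with single mice between 0.075 and 63.4 CPM. In the SLC6 family, Slc6a6, the taurine transporter, and Slc6a8, the creatine transporter, carried nearly all reads. Slc6a8 had class means from 5.64 to 44.5 CPM. The serotonin transporter Slc6a4, the member that stands for amine uptake, was at 1.50 CPM in embryonic EC and at most 0.12 CPM in the other 6 classes. The 8 amino acid carriers and orphans of SLC6 stayed under 2 CPM in each class mean.

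**Figure D2:**
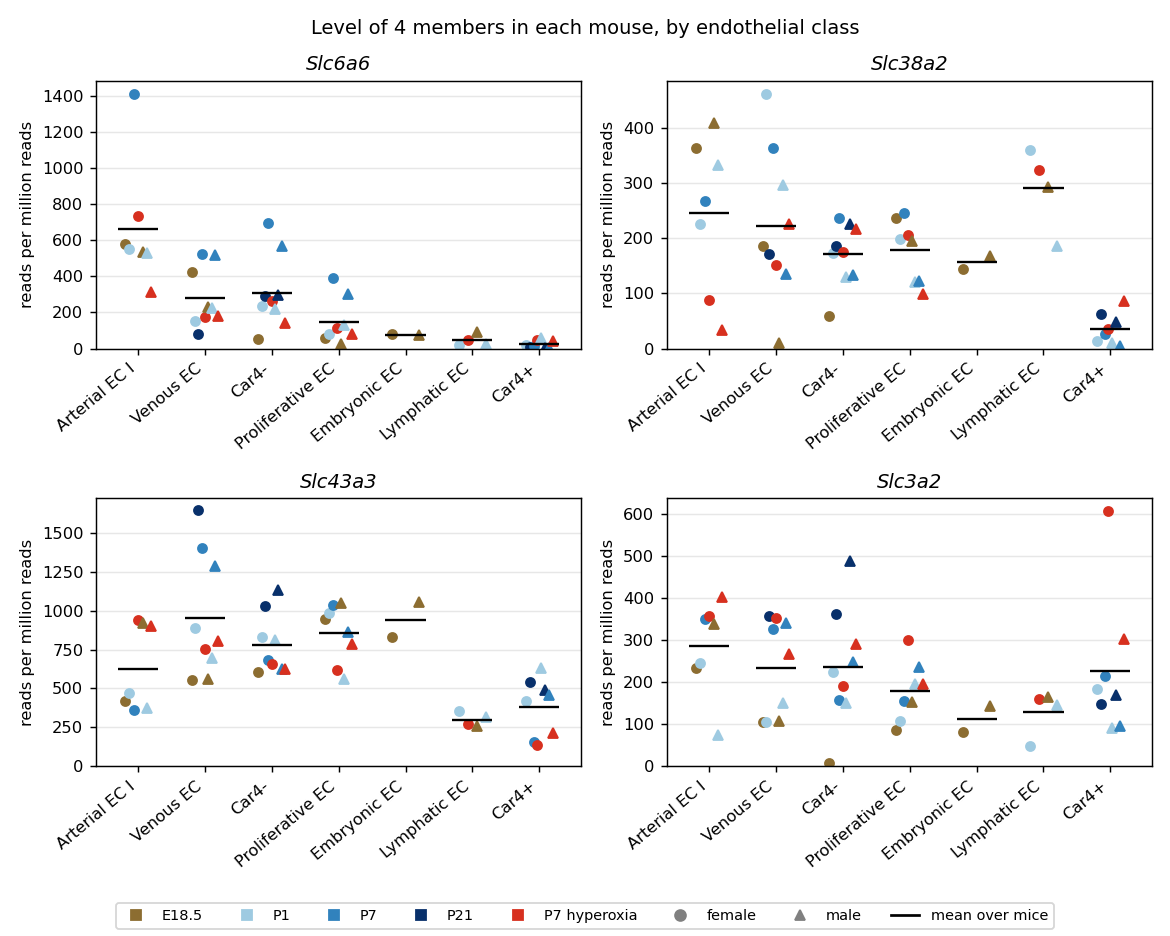
Level of Slc6a6, Slc38a2, Slc43a3 and Slc3a2 in each mouse with at least 8 cells of a class, in CPM; colour marks age or hyperoxia, shape the sex, and the line the mean over mice. The 8 Car4+ values of Slc6a6 (0.676 to 58.8) lie below the 8 postnatal Car4- values (139 to 693).

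As a ratio of the highest to the lowest class mean, Slc6a6 varied most among the 5 highest members. Slc6a6 lies on chromosome 6, from 91684053 to 91759066 on the plus strand (GENCODE M21, GRCm38). In Arterial EC I its lowest, median and highest values over 7 mice were 310, 551 and 1410 CPM. In venous EC they were 78.3, 226 and 523 CPM over 9 mice. Arterial EC thus lay highest, but the 2 classes overlapped. In proliferative EC they were 23.4, 97.0 and 392 CPM over 8 mice. The 2 embryonic mice had 79.8 and 74.9 CPM, and lymphatic EC ranged from 21.1 to 91.3 CPM over 4 mice. In Car4+ capillaries they were 0.676, 15.2 and 58.8 CPM over 8 mice, the lowest of the 7 classes. At an equal depth of 50000 reads per cell, Slc6a6 had a read in 75.3% of 93 Arterial EC I cells (65.2% to 83.6%, 95% Clopper-Pearson interval) and in 11.7% of 332 Car4+ cells (8.49% to 15.7%). The shares at full depth were 79.2% and 23.2%. These intervals take the cells, pooled over mice, as independent, so they cover counting error alone and leave out the spread between mice. PCR copies of 1 molecule are counted as separate reads.

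Car4+ and Car4- capillaries, the 2 capillary types of the alveolus, were compared over 8 postnatal mice in a fit that includes the mouse, which sets both classes of an animal side by side. Slc6a6 and Slc38a2 were lower in Car4+ capillaries in all 8 mice, and no member was called higher. edgeR called 2 of the 35 members tested, against 913 of 15348 genes (5.95%; 4.15% counting those that were lower), so the members' share lay near that of all genes. Slc6a6 had 0.676, 15.2 and 58.8 CPM (lowest, median, highest) in Car4+ and 139, 274 and 693 CPM in Car4- capillaries. The groups did not overlap, and Slc6a6 fell by 3.73 on the log2 scale (SE 0.55, a 13.2-fold lower level, edgeR adjusted p = 4.4e-05). The fit takes the same class difference in every group and includes the hyperoxia mice. The 13.2-fold value is thus fitted over all ages and both oxygen conditions. By the values given below, the gap was smaller under hyperoxia than at P7 in normal air. Slc38a2 had 4.91, 30.2 and 85.4 CPM in Car4+ and 130, 181 and 237 CPM in Car4- capillaries, again with no overlap. It fell by 2.27 (SE 0.43, 4.82-fold lower, adjusted p = 0.00087). Over the 35 tested members the median log2 difference was -1.06, with 11 higher and 24 lower, beside a median of -0.25 over all genes tested.

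Slc7a7 was also lower in all 8 mice but did not pass the test. It had 0, 15.6 and 30.0 CPM in Car4+ and 31.3, 66.5 and 106 CPM in Car4- capillaries, with a log2 difference of -2.11 (SE 0.73, adjusted p = 0.087). The heavy chain Slc3a2, its partner at the membrane, had 226 ± 168 CPM in Car4+ and 263 ± 115 CPM in Car4- capillaries (SD, n = 8), with a log2 difference of -0.07 (SE 0.31, adjusted p = 0.96). Slc43a3 was lower in all 8 mice, at 380 ± 189 against 799 ± 193 CPM, with overlap between the groups and an adjusted p of 0.061. Slc43a2 went the other way in all 8 mice, at 23.4 ± 26.3 against 1.70 ± 2.51 CPM, and was not called (adjusted p = 0.13). DESeq2 called 7 members, adding Slc43a3, Slc7a7, Slc43a1, Slc43a2 and Slc38a5, and edgeR on cells thinned to 50000 reads called 5. The shares of all genes called under these settings are not given here, so these counts have no background beside them. Slc6a6 and Slc38a2 were called under each of the 16 alternatives, with adjusted p up to 0.0037 and 0.0060. Summed levels of 6 epithelial markers overlapped between the classes, at 18.2 to 258 CPM in Car4+ and 0 to 180 CPM in Car4- capillaries, and 7 mesenchymal and mural markers did not exceed 46.7 CPM in either; their part in the difference was not tested.

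**Figure D3:**
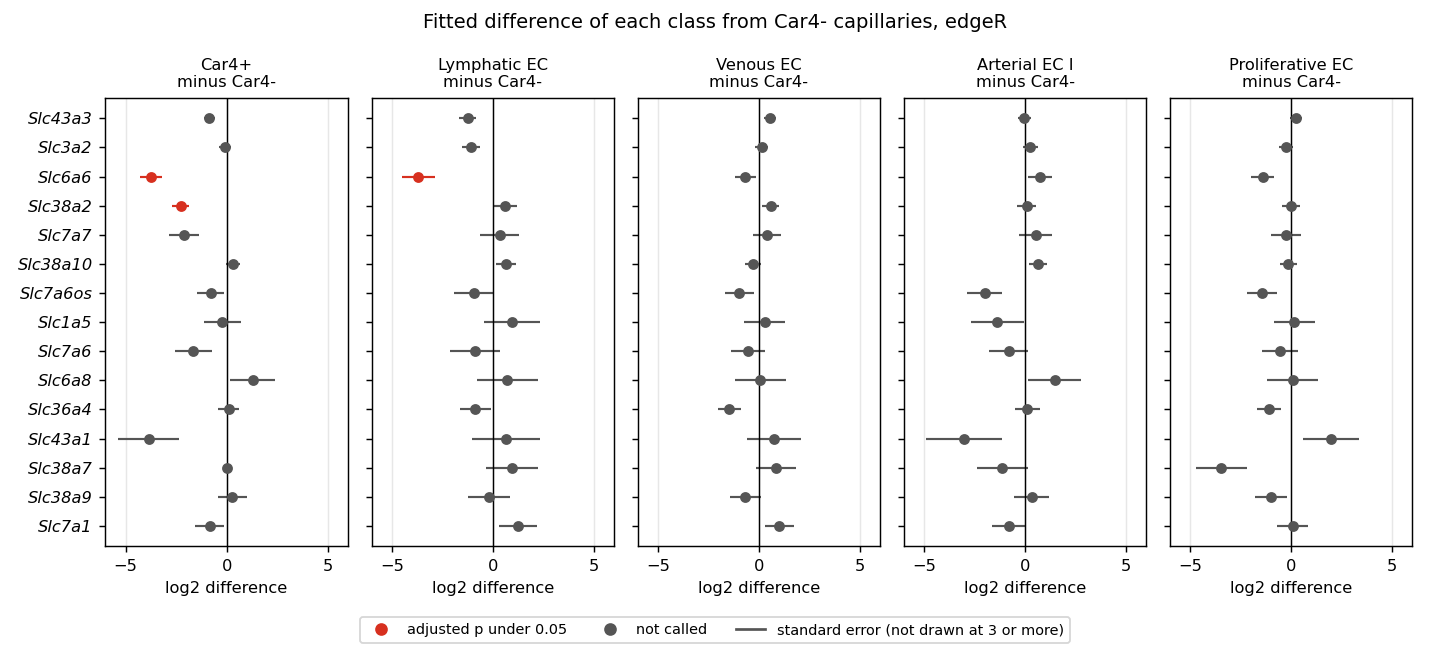
Fitted log2 difference (edgeR) of 5 classes from Car4- capillaries for the 15 highest members, with standard errors as bars (none at 3 or more); red points passed an adjusted p of 0.05. Slc6a6 stands at -3.73 in Car4+ capillaries and at -3.68 in lymphatic EC, and Slc38a2 at -2.27 in Car4+ capillaries; the other points are not called.

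The RefSeq windows before transcript starts are shown for the pair of sodium-driven and exchanging carriers that were low together in Car4+ capillaries, Slc38a2 (called) and Slc7a7 (not called), since Slc38a2 is known to respond to amino acid supply. The amino acid response element was searched as TGATGNAA on both strands in the 250 bases before each start. Of the 53 members, 39 had at least 1 window in the RefSeq table; Slc6a6 and Slc43a3 are not among them. The element was found in 4 of the 57 windows of members (of Slc7a11, Slc7a7 and Slc6a21), and in 1134 of all 32851 windows of this length (3.45%). The Slc38a2 window (GRCm38.p6, chr15:96699729-96699978, minus strand, printed 5′ to 3′) held 0 matches, which says only that these letters are not in these bases. Slc7a7 has 5 windows, of which 3 held 0 matches and 2 held 1. The most upstream of them, printed because it held a match (chr14:54417945-54418194, minus strand), has it in capitals, beginning 141 bases before the start.
Slc38a2: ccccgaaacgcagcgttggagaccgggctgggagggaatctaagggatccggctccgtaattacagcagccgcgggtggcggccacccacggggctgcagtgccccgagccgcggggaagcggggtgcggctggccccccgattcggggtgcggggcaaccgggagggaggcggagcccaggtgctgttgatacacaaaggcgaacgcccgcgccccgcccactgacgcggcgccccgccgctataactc
Slc7a7: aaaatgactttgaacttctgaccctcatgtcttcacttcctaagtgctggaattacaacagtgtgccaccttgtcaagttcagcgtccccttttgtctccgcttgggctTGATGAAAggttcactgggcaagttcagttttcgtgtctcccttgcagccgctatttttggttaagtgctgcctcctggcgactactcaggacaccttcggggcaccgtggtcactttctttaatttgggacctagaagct
A second motif, the tonicity element bound by Nfat5, was found in 7 of the 57 windows of members and in 1416 of all 32851 windows (4.31%). The 7 windows belong to Slc6a12, Slc6a13, Slc6a17, Slc6a21, Slc36a3, Slc38a4 and Slc38a6. The Slc6a21 window held both motifs. Matches are descriptions of sequence and not evidence of binding.

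Lymphatic EC, which line the vessels that drain lymph, were compared with Car4- capillaries in 3 mice. Slc6a6 was again the called member, 1 of 35 tested against 856 of 15348 genes (5.58%; 3.34% counting those that were lower). Lymphatic EC of the female and male P1 mice had 21.1 and 25.0 CPM and those of the female hyperoxia mouse 47.1 CPM, where Car4- capillaries had 237, 219 and 260 CPM. Every lymphatic value lay below every Car4- value, and Slc6a6 fell by 3.68 on the log2 scale (SE 0.83, 12.8-fold lower, edgeR adjusted p = 0.0045). The 5 proliferation markers summed to 759, 1025 and 694 CPM in the lymphatic EC of these mice (P1 female, P1 male, hyperoxia female) and to 32.0, 48.9 and 134 CPM in their Car4- capillaries; their part in the difference was not tested. Without the P1 female mouse the adjusted p was 0.065, the highest over the 16 alternatives. The median over all genes was -0.15 here and moved by 0.17 under RLE scaling (size factors from gene medians).

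The next lymphatic values did not pass. Slc43a3 had 351, 316 and 273 CPM against 831, 815 and 658 CPM in the Car4- capillaries of the same mice (adjusted p = 0.0675), and was called under 7 of the 16 alternatives. Slc38a4, a carrier of small neutral amino acids, had 14.2 to 25.9 CPM (796 reads) against 0 to 0.030 CPM (4 reads), with an adjusted p of 0.15. Slc1a4 had 1.82 to 30.6 CPM against 0.049 to 0.101 CPM, with an adjusted p of 0.22. Both lie above Car4- capillaries in all 3 mice. DESeq2 called 5 members: Slc6a6, Slc38a4, Slc1a4, Slc38a5 and Slc36a2. In these 3 mice Slc38a5 and Slc36a2 each had 0 reads in lymphatic EC and 1 read in Car4- capillaries. Their calls therefore say nothing about a difference in these mice.

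In venous EC, Arterial EC I and proliferative EC, edgeR called 0 of 35 members against Car4- capillaries. The calls over all genes were 475 (3.09%), 295 (1.92%) and 200 (1.3%) of 15348. In each of these comparisons the unadjusted p of 3 members was under 0.05, beside 1999, 2689 and 1647 of all 15348 genes. The calls by DESeq2 were 2, 4 and 1. Slc6a6 was higher in Arterial EC I than in Car4- capillaries in all 5 mice, at 310, 551 and 1410 CPM against 139, 237 and 693 CPM, a log2 difference of 0.76 (SE 0.59, adjusted p = 0.56). In proliferative EC it was lower in all 6 mice (log2 difference -1.42, SE 0.56, adjusted p = 0.30). Slc38a7 had 0 to 6.37 CPM in proliferative EC and 8.24 to 33.9 CPM in Car4- capillaries of the same 6 mice, with no overlap and an adjusted p of 0.24.

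A test of any difference among the 6 postnatal classes called 6 of 35 members, against 3467 of 15348 genes (22.6%), a share of members below that of all genes. Slc6a6 had the smallest adjusted p (2.3e-06), followed by Slc38a2 (0.00068) and Slc43a3 (0.0019). Slc43a2 (0.036) was called as well. The glycine transporter Slc6a9 (0.0037) and the cationic carrier Slc7a2 (0.028) were called at levels close to 0: the highest class mean was 1.51 CPM for Slc6a9, in lymphatic EC, and 0.60 CPM for Slc7a2. The exons of Slc6a9 overlap those of B4galt2 and Ccdc24 on the other strand. Slc6a6, Slc38a2 and Slc43a3 were called under each of the 16 alternatives, Slc43a2 under 10 of 16, Slc6a9 under 14 of the 15 that tested it and Slc7a2 under 8 of 14.

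Within Car4- capillaries, the Early and Late labels could be set side by side in the female P1 mouse (160 and 21 cells) and the female P7 mouse (162 and 44 cells). Slc6a6 was at 243 CPM in Early and 156 CPM in Late cells of the P1 female mouse, and at 746 and 327 CPM in the P7 female mouse. Slc43a3 was likewise higher in the Early cells of both, at 875 against 285 CPM and 717 against 426 CPM. Slc3a2 went the other way, at 219 against 274 CPM and 143 against 251 CPM. Slc38a2 had no common direction. With 2 mice of different ages these values carry no test.

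The ages were compared within each class. edgeR called no member in any of these 8 comparisons. Slc6a6 had the same order in 3 classes, with the P7 mice above the P1 mice. These classes come from the same mice and are not separate replicates. Among CD31-gate cells no P1 and P7 mice shared a run. In Car4- capillaries it was 237 and 219 CPM at P1 (female and male), 693 and 569 CPM at P7, and 288 and 295 CPM at P21. In venous EC it was 151 and 226 CPM at P1 and 523 and 517 CPM at P7. In proliferative EC it was 79.5 and 130 CPM at P1 and 392 and 301 CPM at P7. In Car4+ capillaries both P7 mice (12.9 and 4.66 CPM) lay below both P1 mice (17.6 and 58.8 CPM), and the P21 mice had 6.48 and 0.676 CPM.

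The fitted P7 minus P1 differences of Slc6a6 were 1.36 (SE 0.38, adjusted p = 0.39) in Car4- capillaries, 1.37 (SE 0.56, adjusted p = 1) in venous EC, 1.55 (SE 0.56, adjusted p = 0.49) in proliferative EC and -2.14 (SE 1.51, adjusted p = 0.77) in Car4+ capillaries. None passed. In Car4- capillaries 0 of 14660 genes (0%) were called between P1 and P7. An unadjusted p under 0.05 was reached by 3 of 35 members and by 1663 of the 14660 genes. The calls by DESeq2 were Slc6a6 and Slc3a1. For this step age and sequencing run cannot be told apart among CD31-gate cells. From P7 to P21 in Car4- capillaries 39 of 14660 genes (0.266%) and 0 of 35 members were called, and DESeq2 called Slc1a1, Slc38a3 and Slc7a3. From P7 to P21 an unadjusted p under 0.05 was reached by 10 of 35 members and by 1542 of 14660 genes.

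Between P7 and P21 the joined class also changes its labels: Late cells were 44 of 206 and 2 of 116 at P7 (female and male) and 268 of 272 and 265 of 268 at P21, so this step sets mostly Early against mostly Late cells. The heavy chain Slc3a2 had 361 and 488 CPM at P21 and 156 and 248 CPM at P7, without overlap (log2 difference 1.21, SE 0.40, adjusted p = 0.32). In the CD31-gate cells of the male mice, which shared a run, it was 377 CPM at P21 and 238 CPM at P7. Slc6a6 in those cells was 315 CPM at P21 and 608 CPM at P7, where the fit over both sexes gave -0.99 (SE 0.38, adjusted p = 0.41). Slc1a1 had 21.03 and 7.72 CPM at P21 against 2.03 and 0.342 CPM at P7 (adjusted p = 0.40). From P1 to P7, Slc7a7 went from 47.3 and 31.3 CPM to 85.4 and 70.2 CPM, and Slc7a6 from 18.3 and 13.5 CPM to 55.4 and 24.5 CPM, each with an adjusted p of 0.44.

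In Car4+ capillaries 23 members were tested. Between P1 and P7, 0 members and 0 of 12284 genes (0%) were called, no member had an unadjusted p under 0.05, and DESeq2 called 0 members. Between P7 and P21 the calls were 0 members and 1 gene (0.00814%), with 1 member under an unadjusted p of 0.05 and 0 by DESeq2. Over all 12284 genes, 772 (P1 to P7) and 644 (P7 to P21) were under this unadjusted p. Slc38a2 had 25.8 and 4.91 CPM at P7 and 62.8 and 47.8 CPM at P21 (adjusted p = 0.87), still below every postnatal Car4- value. Slc7a7 had 22.9 and 20.4 CPM at P1, 0 and 5.30 CPM at P7, and 22.4 and 30.0 CPM at P21. Slc43a2 had 6.19 and 0.0746 CPM at P1 and 33.8 and 59.4 CPM at P7 (adjusted p = 0.73). Slc7a6 had 3.92 and 1.55 CPM at P7 and 5.50 and 37.1 CPM at P21, and turned direction with CD31-gate cells alone.

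Proliferative EC (26 members tested) and venous EC (25 tested) could be followed from E18.5. In proliferative EC 0 of 13102 genes (0%) were called at either step. The unadjusted p of 3 and 2 members was under 0.05, beside 972 and 1287 of the 13102 genes. The calls by DESeq2 were Slc38a1 between E18.5 and P1 and Slc38a5 between P1 and P7. Slc38a1 started at 33.8 and 44.0 CPM before birth, then had 6.92 and 1.14 CPM at P1 and 19.4 and 9.50 CPM at P7. Slc7a7 went from 11.8 and 20.4 CPM before birth to 35.6 and 68.7 CPM at P1 (adjusted p = 0.66), and Slc6a6 from 60.2 and 23.4 CPM to 79.5 and 130 CPM (adjusted p = 0.62). Slc1a5 had 11.1 and 2.20 CPM at P1 and 34.2 and 16.3 CPM at P7 (adjusted p = 0.56). Without the P1 female mouse, edgeR called 3 members at each step, Slc36a2 and Slc7a6 at both.

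In venous EC 2 of 12326 genes (0.0162%) and 0 members were called between E18.5 and P1, and 0 genes (0%) and 0 members between P1 and P7. Unadjusted p under 0.05 came to 1 and 2 members, beside 1074 and 396 of the 12326 genes. DESeq2 called Slc38a7 at the first step and 0 members at the second. Slc38a7 had 0.0975 and 0.112 CPM (2 reads) at E18.5 and 20.7 and 13.01 CPM (991 reads) at P1. Slc43a2 had 1 read at E18.5 and 542 reads at P1, 338 of them in the female mouse (30.9 CPM) and 204 in the male mouse (3.47 CPM). Slc7a6 was at 64.8 and 30.1 CPM before birth and at 8.23 and 5.90 CPM on P1 (adjusted p = 0.56). Slc3a2 had 105 and 149 CPM at P1 and 326 and 340 CPM at P7 (adjusted p = 1), and Slc38a1 3.84 and 18.9 CPM and then 74.8 and 19.5 CPM.

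The nonproliferative embryonic EC of E18.5 were set against the Car4- capillaries of P1, the capillaries of the next age. edgeR called 0 of 36 members, against 74 of 14967 genes (0.494%). An unadjusted p under 0.05 was reached by 7 members and by 1410 of the 14967 genes. Slc6a6 had 79.8 and 74.9 CPM in the embryonic cells and 237 and 219 CPM at P1 (log2 difference -1.65, SE 0.39, adjusted p = 0.11). Female cells of the CD31 gate came from 1 run and had 79.8 CPM (embryonic) and 223 CPM (P1). Slc36a4 had 9.56 and 14.8 CPM against 54.1 and 55.7 CPM (adjusted p = 0.16). Slc38a3, a glutamine carrier, had 26.7 and 31.04 CPM against 0.255 and 0.847 CPM (adjusted p = 0.40). DESeq2 called these 3 and Slc6a8; with thinned cells edgeR called Slc6a6 (adjusted p = 0.045, in a range of 0.0022 to 0.40 over 17 alternatives).

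**Figure D4:**
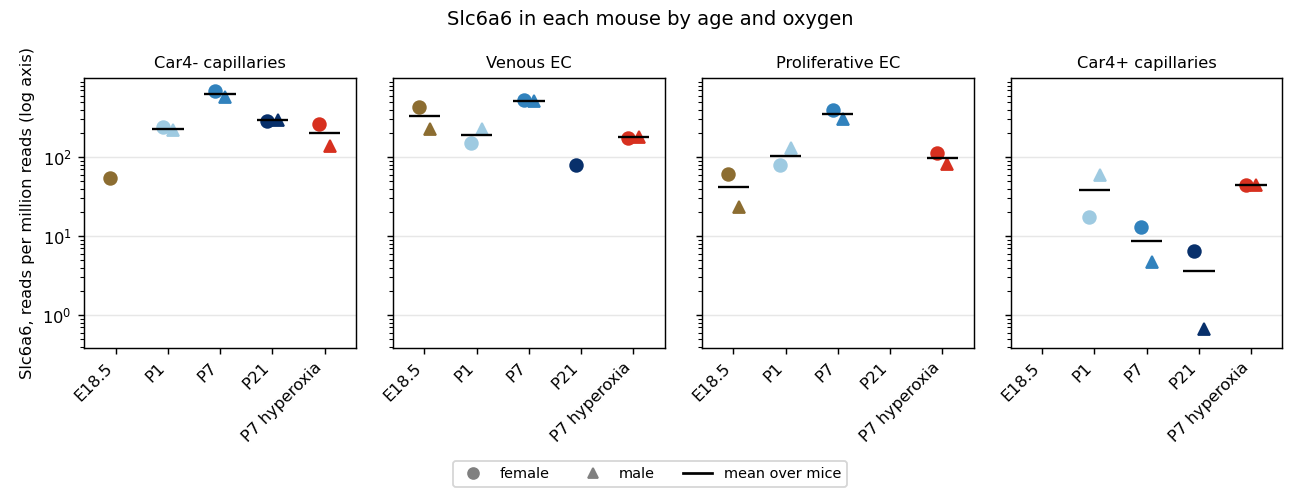
Slc6a6 in each mouse with at least 8 cells, by age and oxygen in 4 classes, in CPM on a log axis; circles are female and triangles male mice, and lines are means of 2 mice. At P7 both hyperoxia mice lie below both normal-air mice in Car4- capillaries, venous EC and proliferative EC, and above them in Car4+ capillaries.

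Hyperoxia, used in newborn mice as a model of oxygen injury to the growing lung, was compared with normal air at P7. Slc6a6 was lower under hyperoxia in both mice of 3 classes and higher in both mice of the fourth, but no value passed the test. The classes come from the same mice and are not separate replicates. In Car4- capillaries it was 260 and 139 CPM (female and male) under hyperoxia and 693 and 569 CPM in normal air, a log2 difference of -1.70 (SE 0.39, adjusted p = 0.42). In proliferative EC it was 113 and 80.9 CPM against 392 and 301 CPM (-1.85, SE 0.57, adjusted p = 1), and in venous EC 176 and 182 CPM against 523 and 517 CPM (-1.53, SE 0.56, adjusted p = 1). In Car4+ capillaries it was 44.7 and 43.7 CPM against 12.9 and 4.66 CPM. These normal-air values are low, and the male sum held 24 cells and 7733119 reads. Slc6a6 was not among the 3 members named by smallest unadjusted p in this class. Over all members and genes, edgeR called 0 of 35 members and 2 of 14660 genes (0.0136%) in Car4- capillaries, and 0 members and 0 genes (0%) in the other 3 classes. Members with an unadjusted p under 0.05 numbered 4 in Car4-, 3 in Car4+, 2 in proliferative and 1 in venous cells. Over all genes these numbers were, in the same order, 809 of 14660, 757 of 12284, 339 of 13102 and 331 of 12326. DESeq2 called Slc6a6 in Car4- capillaries, Slc38a3 in proliferative EC, and 0 in the other 2.

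The difference between the hyperoxia effects of the 2 capillary types was tested itself. For Slc6a6 it was 4.03 on the log2 scale (SE 0.62), with an adjusted p of 0.57 over 13240 genes, of which 0 (0%) were called. Of 25 members tested 0 were called and 5 were under an unadjusted p of 0.05, beside 438 of the 13240 genes. Calls by DESeq2 were Slc6a6 and Slc36a1, and thinned cells gave Slc6a6, with adjusted p from 2.6e-05 to 1 over 9 alternatives. For venous EC and for proliferative EC against Car4- capillaries, 0 of 26 and 0 of 27 members were called, with 0% of 13379 and of 13781 genes. An unadjusted p under 0.05 was reached by 2 and 1 members, beside 483 and 465 of these genes. DESeq2 called 0 members in both. In the CD31-gate cells of the male mice, which shared a run, Slc6a6 was 139 CPM (hyperoxia) and 608 CPM (air) in Car4- capillaries. It was 80.9 and 340 CPM in proliferative EC and 182 and 517 CPM in venous EC. The Car4+ capillaries of these mice are not given for this gate.

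Further members had hyperoxia and normal-air mice that did not overlap in at least 1 class, without passing. With 2 mice in a group, many unchanged genes show no overlap as well. The share of all genes without overlap is not given here, so these members show no pattern beyond it. Slc1a5 had 78.2 and 48.0 CPM under hyperoxia against 26.0 and 10.4 CPM in Car4- capillaries (adjusted p = 0.89), and 58.2 and 56.1 CPM against 6.22 and 0.905 CPM in Car4+ capillaries (adjusted p = 0.73). In venous EC the mice overlapped, with 15.6 and 17.1 CPM against 13 and 22.2 CPM. Slc36a4 had 127 and 127 CPM against 45.4 and 9.05 CPM in Car4+ capillaries (adjusted p = 0.73) and 44.0 and 31.4 CPM against 5.22 and 14.3 CPM in proliferative EC (adjusted p = 1). In Car4- capillaries the Slc36a4 mice overlapped, with 35.5 and 25.3 CPM against 28.2 and 56.4 CPM and a log2 difference of -0.50 (SE 0.53, adjusted p = 1). Slc3a2 had 607 and 303 CPM against 214 and 95.3 CPM in Car4+ capillaries (adjusted p = 0.73). In venous EC Slc43a3 had 752 and 806 CPM against 1406 and 1290 CPM (adjusted p = 1), and Slc1a4 13.5 and 9.70 CPM against 8 reads in all. Slc38a6 had 7.13 and 12.7 CPM against 30.2 and 33.1 CPM in Car4- capillaries (adjusted p = 0.89), and in the CD31-gate cells of the male mice 12.7 and 13.9 CPM. Slc6a8 in proliferative EC had 14.8 and 94.5 CPM against 11.6 and 9.61 CPM.

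Markers moved with hyperoxia too. The summed level of 6 epithelial markers in Car4+ capillaries was 188 and 258 CPM under hyperoxia and 18.2 and 74.6 CPM in normal air, with Sftpb at 0 in all 4 mice; in Car4- capillaries it was 96.8 and 153 CPM against 32.5 and 73.6 CPM. The 5 lymphatic markers summed to 4024 and 3640 CPM against 827 and 733 CPM in Car4- capillaries, with Ccl21a at 0 in all 4 mice. Lyve1 alone reached 4023 CPM in Car4- capillaries. Their part in the member values was not tested.

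Genes around these carriers, from lists of pathways, are given by count. In the class comparison of Car4+ with Car4- capillaries, 2 of 11 genes of arginine and nitric oxide metabolism fell: Nos3, the endothelial nitric oxide synthase (17.003 ± 26.2 against 54.0 ± 27.8 CPM, SD, n = 8, edgeR adjusted p = 0.0082), and Gch1, which makes its cofactor (5.55 ± 6.93 against 42.6 ± 13.4 CPM, adjusted p = 0.018). One of 22 amino acid response genes fell, Chac1 (9 reads against 7160 reads, adjusted p = 0.020), 1 of 20 lysosomal sensing genes rose, Lamtor5 (312 ± 115 against 233 ± 78.9 CPM, adjusted p = 0.034), and 1 of 10 amine genes fell, the serotonin receptor Htr2a (4 reads against 4562 reads, adjusted p = 0.00039). None of 11 genes of glutamine, glutamate and taurine metabolism and none of 14 other amino acid carriers was called. Over all genes 5.95% were called and 4.15% were lower, so the shares of the lists of 20 and 22 genes lay near the background, and in lists of 10 and 11 genes the counts rest on 1 or 2 genes. The medians of these lists ran from -2.32 (amine genes) to 0.22 (glutamine, glutamate and taurine), beside -0.25 over all genes.

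In lymphatic EC, where 5.58% of all genes were called and 3.34% were lower, 4 of 11 arginine and nitric oxide genes fell, among them Ddah2 (196 ± 67.2 against 755 ± 47.0 CPM, SD, n = 3, edgeR adjusted p = 3.6e-06), Ass1 (1.48 ± 2.11 against 24.5 ± 24.2 CPM, adjusted p = 0.0028) and Gch1 (adjusted p = 0.013). Of 11 genes of glutamine, glutamate and taurine metabolism 2 were called: glutamine synthetase Glul fell (48.1 ± 13.6 against 183 ± 45.3 CPM, adjusted p = 0.00055) and glutamate dehydrogenase Glud1 rose (353 ± 86.8 against 128 ± 33.6 CPM, adjusted p = 0.014). The amine oxidase Maoa (38.7 ± 23.5 against 211 ± 141 CPM, adjusted p = 0.010) and Htr2a fell, 2 of 10 amine genes. In venous EC, where 3.09% of all genes were called, 2 of 11 genes of the glutamine list and 1 of 11 of the arginine list were called. Oat, which links ornithine to glutamate, rose (397 ± 184 against 30.8 ± 25.4 CPM, SD, n = 7, adjusted p = 0.00060), while Glul and Nos2 fell (adjusted p = 0.0035 and 0.0089). In Arterial EC I the asparagine synthetase Asns had 0 reads against 24202 reads in the Car4- capillaries of the same 5 mice (adjusted p = 2.0e-04), and Asns and Vldlr were the 2 of 22 amino acid response genes called, both lower, beside 1.92% of all genes. In proliferative EC none of these lists had a called gene, and the same held for the age, embryonic and hyperoxia comparisons.

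Taurine is an osmolyte, so 3 osmolyte genes were added to the lists after values had been seen: the tonicity factor Nfat5, the inositol transporter Slc5a3 and the sorbitol enzyme Akr1b3. Nfat5 rose in lymphatic EC (280 ± 121 against 45.2 ± 27.5 CPM, SD, n = 3, edgeR adjusted p = 0.048), where Slc6a6 fell. In Car4+ capillaries Nfat5 had 39.4 ± 25.3 against 59.2 ± 42.4 CPM and was not called (SD, n = 8, adjusted p = 0.91). Akr1b3 had 40.6 ± 15.9 against 36.4 ± 9.45 CPM there (SD, n = 8, adjusted p = 0.84) and was called in none of the class, age, embryonic or hyperoxia comparisons. Slc5a3 was called in the test of any difference among the 6 classes. In Car4- capillaries it had 11.3 and 10.98 CPM at P1 and 45.5 and 46.7 CPM at P7 and was not called (edgeR adjusted p = 0.39). Slc6a6 was also higher in both P7 mice, and for this step age and sequencing run cannot be told apart among CD31-gate cells. Any link between these 3 genes and Slc6a6 was not tested.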

How the data were processed

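The authors deposited 1 table of unnormalized read counts, a gene to a row and a cell to a column; cells were sorted into plates and their libraries cut with Tn5 without molecular identifiers, per the labels' protocols. STAR 2.5.2b and HTSeq 0.10 are named in the submitters' processing notes, with the build GRCh38, a human build, although the cells are from mouse; the annotation and strand setting are not given in the sources used here. Positions, exon lengths and overlaps were taken from GENCODE M21 (GRCm38) by symbol, which holds all 53 members.

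Counts were summed per mouse and class (at least 8 cells) and tested with edgeR 4.0.16 (R 4.3.3; TMM, filterByExpr, quasi-likelihood F test, Benjamini-Hochberg over all genes tested, calls at an adjusted p under 0.05). Group comparisons used all groups of a class in 1 model. Class comparisons used postnatal mice, those under hyperoxia included, with the mouse as a term and the same class difference in every group. Hyperoxia interactions used the P7 mice of a pair of classes. The standard error is the log2 difference divided by the root of F. The tests were tried on simulated data with known log2 changes of 1, 2 and 4. The changes were planted only in genes above a minimum mean level, and no other effect of mouse, age or class was simulated. The shares below therefore do not cover members at the lowest levels. For hyperoxia in Car4- capillaries 1.49%, 28.4% and 87.9% of the changed genes were called. For Car4+ against Car4- capillaries the shares were 4.48%, 37.3% and 72.7%. In the hyperoxia interaction of Car4+ capillaries they were 0%, 4.48% and 31.8%. Of unchanged genes at most 0.035% were called. A member that was not called can therefore still differ. CPM are reads per 1000000 reads of a sum.

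Members were all symbols of the rule. Those named in a comparison were the called ones. Where fewer than 3 were called, those with the smallest unadjusted p, at least 10 CPM and no overlap were added. In comparisons of age or oxygen, with 2 mice in a group, many unchanged genes show no overlap too. Their share is not given. The 15 highest per kilobase and members with at least 10 CPM in a class were named for levels. Members and lists were chosen with earlier results of these data known, and other genes given by name were chosen after their values were seen. Alternatives were DESeq2 1.42.0, RLE scaling, no filter beyond 1 read, CD31-gate cells alone, cells thinned to 50000 reads (11 shallower cells left out), leaving out each mouse, a replicate block, sums of at least 4 cells and, for Car4- capillaries, the Early label alone up to P7 and the Late label alone at P21. Shares of all genes called are given for the main edgeR fit alone, so member counts under the alternatives have no background beside them. No cells were clustered again, no doublet caller was run, and 0 columns were left out.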

Additional observations from a re-analysis of the deposited data

How the results depend on the processing

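Of the values of single members recomputed under the alternatives, 826 kept their direction and their side of the threshold, 25 passed it in addition, 14 no longer passed it and 1 reversed: Slc7a6 from P7 to P21 in Car4+ capillaries had a log2 difference of 3.02 and of -0.20 with CD31-gate cells alone. Counts of called members stayed within 1.5 times in 280 recomputed cases and moved in 31; the cause was not tested. DESeq2 called 2 members in Car4- capillaries between P1 and P7, 3 between P7 and P21 and 1 under hyperoxia, 1 in each of the 3 comparisons of proliferative EC, 1 in venous EC between E18.5 and P1, and 4 in embryonic EC, where edgeR called 0. Against Car4- capillaries DESeq2 called 7 members in Car4+ capillaries, 2 in venous EC and 4 in Arterial EC I. It called 5 in lymphatic EC, 1 in proliferative EC, 12 in the test of any difference and 2 in the interaction of Car4+ capillaries. Of the 5 in lymphatic EC, Slc38a5 and Slc36a2 had 0 reads there and 1 read in the Car4- capillaries of the same mice. Cells thinned to 50000 reads gave 1 member in embryonic EC, 5 in Car4+ capillaries, 2 in lymphatic EC and 1 in the interaction of Car4+ capillaries. In lymphatic EC 2 members (Slc6a6 and Slc43a3) were also called with no filter beyond 1 read, with CD31-gate cells alone, with sums of at least 4 cells, and with no replicate block. Sex as a replicate block left 0 members called in each of the 13 age, embryonic and hyperoxia comparisons. In Car4- capillaries of the P1, P7, P21 and hyperoxia groups, same-sex mice did not deviate together (correlations from -0.017 to 0.059). The sexes thus did not pair the mice there, while E18.5 and the other classes were not checked. Leaving out each mouse in turn gave 0 to 1 called members in Car4+ capillaries between P1 and P7 (Slc38a9, without the P1 female mouse), 0 to 3 in proliferative EC at both age steps (3 without the P1 female mouse), 0 to 1 in venous EC between E18.5 and P1 (Slc38a2, without the E18.5 female mouse), 0 to 2 in lymphatic EC (0 without the P1 female mouse) and 2 to 3 in Car4+ against Car4- capillaries. RLE scaling moved the median of all genes by 0.12 in Arterial EC I, 0.17 in lymphatic EC and 0.13 in proliferative EC between E18.5 and P1.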
